A study of Mus musculus with 16 samples.

Results

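Leukemic stem cells (LSCs) of wild-type (WT) mice with chronic myeloid leukemia (CML) were set against naive WT LSK cells by RNA sequencing, with 3 LSC libraries against 2 LSK libraries of the 16 in the study. LSK cells lack lineage markers, carry Sca-1 and c-Kit, and are the bone marrow fraction that holds the hematopoietic stem cells (HSCs). Of the 26595 features in the table, the 3956 that stood above its lowest value, 0.003 RPKM, in all 5 libraries formed the main set and were tested. Another 4575 were above that floor in both LSK libraries and at it in all 3 LSC libraries, and 14 showed the opposite. These features were counted but not tested, and a further 5277 were above the floor in both LSK libraries and in 1 or 2 LSC libraries.

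Both groups came from bone marrow of C57BL/6 mice with intact Cd93, labelled as 8 weeks old. For the WT LSC group, WT LSK cells were sorted, transduced 2 times with a BCR-ABL1-GFP construct and injected into a vein of syngeneic BL/6 hosts that had not been irradiated. LSCs were then sorted from the mice that developed CML. The WT LSK group came from naive mice and carried no construct. The hosts kept their own bone marrow, the gate used to sort the LSCs is not given in the sources used here, and the labels do not say whether libraries of a group are separate animals, so p-values may measure technical spread. For side-by-side reading, further groups are given: LSCs (3 libraries) and LSK cells (2 libraries) labelled as made the same way from CD93-/- mice, called KO here, and LSCs of WT CML mice that were given vehicle (Veh, 3 libraries), which sit in a separately normalised table.

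CML begins when the fusion kinase BCR-ABL1 arises in a blood stem cell, and the disease shows as an overgrowth of granulocytes. LSCs are the cells that keep the leukemia going, and they share surface markers and a self-renewal program with HSCs. Granule proteins mark the steps of granulocyte formation: the azurophil proteases are made first, in promyelocytes, and the S100 proteins and secondary granule proteins later. Major histocompatibility complex (MHC) class I molecules, which show peptides to T cells, are found on nearly all nucleated cells including stem cells.

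The 250 bases before the RefSeq start of 4 genes on which the results turn are shown on GRCm38.p6, S100a8, Ctsg and Mcpt8 for the genes that were higher in LSCs and B2m for those that were lower. Capitals mark every match, on either strand, to GAGGAA (PU.1/ETS type), TGTGGT (RUNX type), TATAAA (core promoter box) and TTGCNNAA (C/EBP type), and to an interferon response element pattern added after the data were seen.

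S100a8, chr3:90668821-90669070, plus strand: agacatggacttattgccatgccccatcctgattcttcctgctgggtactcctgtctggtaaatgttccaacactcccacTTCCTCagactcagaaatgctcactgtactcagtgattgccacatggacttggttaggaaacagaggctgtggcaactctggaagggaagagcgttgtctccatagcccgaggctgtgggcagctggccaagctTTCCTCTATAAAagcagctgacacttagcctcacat
Ctsg, chr14:56102575-56102824, minus strand: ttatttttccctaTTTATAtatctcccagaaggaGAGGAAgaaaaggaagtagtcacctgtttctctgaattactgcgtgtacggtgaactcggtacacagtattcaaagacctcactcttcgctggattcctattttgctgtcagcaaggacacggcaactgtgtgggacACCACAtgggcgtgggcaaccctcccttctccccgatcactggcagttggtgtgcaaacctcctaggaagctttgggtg
Mcpt8, chr14:56085198-56085447, minus strand: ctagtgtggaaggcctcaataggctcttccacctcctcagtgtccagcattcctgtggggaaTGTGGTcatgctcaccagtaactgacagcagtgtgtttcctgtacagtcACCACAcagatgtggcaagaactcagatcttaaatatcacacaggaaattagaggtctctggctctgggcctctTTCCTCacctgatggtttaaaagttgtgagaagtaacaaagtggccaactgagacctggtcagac
B2m, chr2:122147437-122147686, plus strand: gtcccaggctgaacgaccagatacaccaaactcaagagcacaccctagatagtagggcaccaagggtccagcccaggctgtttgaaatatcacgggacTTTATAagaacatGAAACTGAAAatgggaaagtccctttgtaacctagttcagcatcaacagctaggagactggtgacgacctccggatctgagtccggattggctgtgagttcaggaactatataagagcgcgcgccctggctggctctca

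S100a8 held GAGGAA 170 and 36 bases before its start, the nearer match adjoining a TATAAA at 30. Ctsg held GAGGAA at 216, TGTGGT at 79 and TATAAA at 237, while Mcpt8 held GAGGAA at 65 and TGTGGT at 188 and 139. B2m held TATAAA at 152 and the interferon response element pattern at 139, which 2.98% of all 32851 windows of this length held. GAGGAA stood in 23.3% of all windows, TGTGGT in 14%, TATAAA in 12.4% and TTGCNNAA in 9.56%. GAGGAA stood in 8 of the 30 genes that rose and had a single window, and in 6 of the 33 that fell. TTGCNNAA stood in 4 of these 30 and in 0 of these 33. The interferon response element pattern stood in 0 of these 30 and in 2 of these 33, B2m and Ddost. Tapbp, H2-D1, Psmb8, H2-Q6 and H2-Q7, which also fell, did not hold it. The RefSeq starts of S100a8, Mcpt8 and, by 1 base, B2m lie downstream of the GENCODE gene starts used for positions elsewhere, so these windows lie partly within the GENCODE gene spans. A match is a string of letters and not a site, and a window without one says nothing about a factor.

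The markers that define the LSK sort were low in the LSC libraries. Ly6a, which encodes Sca-1, measured 0.799, 5.41 and 0.003 RPKM in WT LSCs against 696 and 790.4 RPKM in WT LSK cells. Kit, the receptor c-Kit, measured 0.221, 16.8 and 2.63 RPKM in WT LSCs against 21.4 and 99.3 RPKM in WT LSK cells. Ptprc, the pan-leukocyte antigen CD45, was measured in both, at 92.3, 105 and 78.4 RPKM in WT LSCs and 62.4 and 86.2 RPKM in WT LSK cells. The lineage markers Cd3e, Cd8a and Ly6g were at the floor in all 3 LSC libraries, and Itgam was no higher than 2.74 RPKM there. Cd4 measured 0.471, 57.4 and 0.003 RPKM in WT LSCs and 4.13 and 12.1 RPKM in WT LSK cells. Cd93, the gene that the labels give as deleted in the KO mice, was at 0.003, 0.003 and 5.74 RPKM in WT LSCs and 5.34 and 22.9 RPKM in WT LSK cells. It measured 0.003, 44.3 and 0.003 RPKM in the libraries labelled KO LSC and 1.01 and 2.10 RPKM in those labelled KO LSK. The library labelled KO LSC 2 thus lay above every WT library and goes against its label, and results that use it are also given without it. Kit did not pass the test described further on (log2 -3.46, limma adjusted p = 0.165) and Ly6a was outside the main set. The name LSC is kept here as the study's label, which the low Ly6a values do not bear out at the RNA level.

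The LSC libraries held fewer features and were less alike. They held 7956, 6867 and 5525 features above the floor against 14865 and 14839 in the LSK libraries. By the step between neighbouring low values, a figure without an error, 1 read per kilobase was worth 0.324, 0.365 and 0.309 RPKM in WT LSCs and 0.172 and 0.135 RPKM in WT LSK cells, which would make the LSC libraries the shallower ones. Only 54.2% to 65.5% of the low values lay within 0.1 of a whole number of such steps, so reads could not be recovered. Main-set features took 93.2% to 94.0% of the RPKM total of each LSC library and 64.1% to 72.0% of each LSK library. Across the main set, whose genes are not independent, log2 values correlated at 0.689 to 0.772 between LSC libraries, at 0.953 between the LSK libraries and at 0.572 to 0.748 between groups. The median within-group SD on the log2 scale was 0.95 in WT LSCs and 0.35 in WT LSK cells. In bulk samples such as these, fewer cells of a type and less RNA per cell cannot be told apart.

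Genes with a lower level in LSK cells were more often at the floor in LSCs. Of the features above the floor in both LSK libraries, 33.1% were at the floor in all 3 LSC libraries. That share was 70.1% where the LSK mean was under 1 RPKM, 35.4% from 5 to 20 RPKM, 20.9% from 20 to 100 RPKM, 8.60% from 100 to 500 RPKM and 2.02% at 500 RPKM or more. The main set is therefore rich in strongly expressed genes. It also leaves out the genes that were lowest in LSCs, so the decreases counted in it are those that left a signal.

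**Figure D1:**
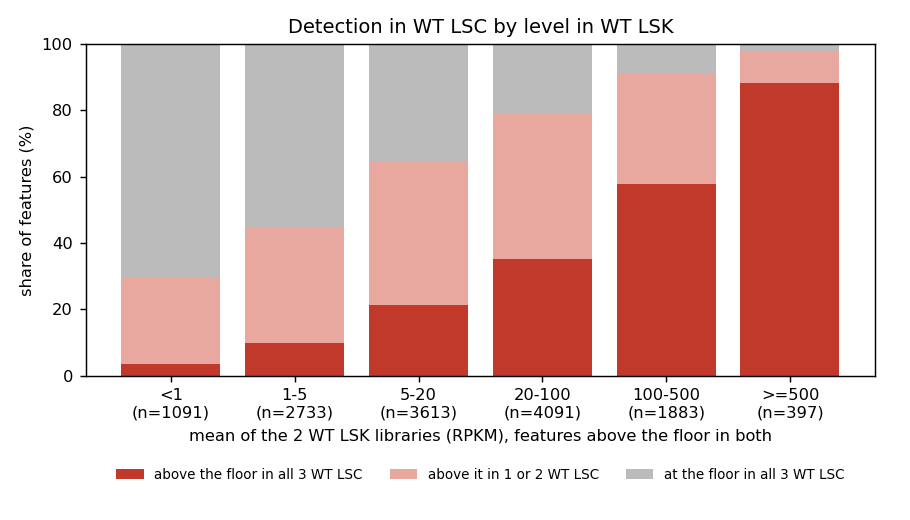
Share of features (%, vertical axis) above the floor in all 3 WT LSC libraries, in 1 or 2 of them, or in none, by mean level in the 2 WT LSK libraries (RPKM, horizontal axis), for the 13808 features above the floor in both LSK libraries. The grey share without any LSC signal was 70.1% in the lowest class and 2.02% in the highest.

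Within the main set, genes of granule proteins, Apoe and the alpha-globin copies were among those that rose in LSCs, and 6 of 11 MHC class I presentation genes fell. Of 3956 features, 51 rose (1.29%) and 52 fell (1.31%), together 2.60%, at an adjusted p under 0.05 (limma on log2(RPKM + 1), two-sided, Benjamini-Hochberg over the main set). The increases ran from log2 2.50 to 6.11 and the decreases from -7.40 to -2.96, and in all 103 the LSC and LSK libraries did not overlap. Non-overlap alone was common: all 3 LSC libraries lay above both LSK libraries in 821 features (20.8%) and below them in 1017 (25.7%). The median difference over the main set was -0.29, which moved to 0.06 under quantile normalization and 0.04 with library medians set equal. Those scalings gave 157 higher and 104 lower, and 127 higher and 54 lower, so the share of calls that were higher was 49.5% as deposited and 60.2% and 70.2% under them.

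Whether features passed depended on which libraries were in the fit. A fit with a library left out has fewer values from which to estimate spread. A lost call alone therefore does not show that 1 library drove it. Without WT LSC library 1 or without WT LSK library 2, 0 features passed by limma (994 and 341 at an unadjusted p under 0.05, against 988 with all 5), and without WT LSK library 1 only Rnr1 and S100a8 did. Without WT LSC library 2, 18 rose and 51 fell, and without WT LSC library 3, 87 rose and 159 fell. No call changed direction in any of these fits.

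**Figure D2:**
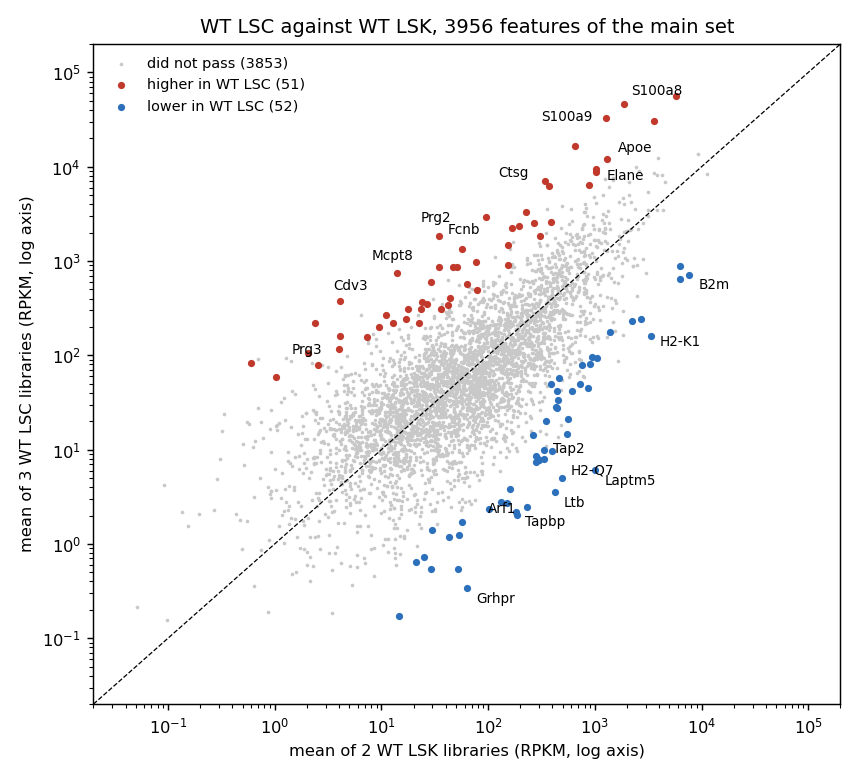
Mean of the 3 WT LSC libraries (vertical, RPKM, log axis) against the mean of the 2 WT LSK libraries (horizontal, RPKM, log axis) for the 3956 main-set features, with the 51 that rose in red, the 52 that fell in blue and equality as a dashed line. S100a8 and S100a9 stand near the top and B2m and H2-K1 at the right below the line.

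Some late neutrophil genes rose, S100a8 and S100a9 to very high levels. S100a8 (GRCm38 chromosome 3, 90668978 to 90670035, plus strand), which with S100a9 forms the calcium-binding complex calprotectin, measured 58652, 45367 and 35295 RPKM in WT LSCs against 2787 and 946 RPKM in WT LSK cells. S100a9 measured 41547, 38452 and 19006 RPKM in WT LSCs against 1919 and 634 RPKM in WT LSK cells. The lowest LSC library thus lay far above the higher LSK library for both genes, and the pair took 8.06%, 7.21% and 4.84% of the RPKM total in WT LSCs against 0.390% and 0.157% in WT LSK cells. The log2 differences were 4.81 (SE 0.58, adjusted p = 0.0277) and 4.82 (SE 0.63, adjusted p = 0.0277, limma).

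Camp, the gene of the antimicrobial peptide cathelicidin, measured 8446, 2906 and 7447 RPKM in WT LSCs and 531 and 216 RPKM in WT LSK cells (log2 4.06, SE 0.64, limma adjusted p = 0.0315). Fcnb, the lectin ficolin B, measured 1653, 1292 and 1088 RPKM in WT LSCs and 64.3 and 49.0 RPKM in WT LSK cells (log2 4.54, SE 0.46, limma adjusted p = 0.0277). 1100001G20Rik, listed today as Wfdc21, was the fifth late neutrophil gene to rise, at log2 5.03. With the 5 KO libraries added to the model, Fcnb and 1100001G20Rik did not pass (limma adjusted p = 0.422 and 0.388). Without the library labelled KO LSC 2 in that model Fcnb still did not (0.291 as adjusted p by limma), while 1100001G20Rik passed. Of the 29 genes of that list 14 were in the main set, 5 rose, 0 fell and 9 did not pass. The list's median log2 difference was 3.11 beside -0.29 over the main set, with 11 members positive and 3 negative. Among the 9, the secondary granule genes Ltf and Lcn2 measured 193, 108 and 495 RPKM and 233, 270.2 and 1363 RPKM in WT LSCs, against 28.1 and 15.8 RPKM and 58.5 and 26.2 RPKM in WT LSK cells (limma adjusted p = 0.0649 and 0.0743). Of the markers of mature neutrophils in the list, Ly6g, Cxcr2 and Mmp9 were at the floor in all 3 LSC libraries, Mmp8 in 1 and Retnlg in 2 of them. Ly6g was at 2.55 and 0.003 RPKM in WT LSK cells. Over the whole list, 2 of the 23 genes above the floor in both LSK libraries (8.70%) were at it in all 3 LSC libraries, against 33.1% of all such features.

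Azurophil granule genes rose in part. Ctsg (chromosome 14, 56099881 to 56102574, minus strand), the serine protease cathepsin G, measured 8263, 7867 and 5179 RPKM in WT LSCs against 411 and 271 RPKM in WT LSK cells, a log2 difference of 4.38 (SE 0.45, limma adjusted p = 0.0277). Elane, neutrophil elastase, measured 10255, 7545 and 10204 RPKM in WT LSCs against 1043 and 1001 RPKM in WT LSK cells (log2 3.18, SE 0.41, limma adjusted p = 0.0277). Prtn3, proteinase 3, measured 6930.0, 7021 and 5073 RPKM in WT LSCs against 1085 and 666 RPKM in WT LSK cells (log2 2.88, SE 0.45, limma adjusted p = 0.0315). No LSC library overlapped an LSK library for these proteases.

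Mpo, myeloperoxidase, missed the threshold (log2 2.56, limma adjusted p = 0.0502) with 9463, 7821 and 4789.8 RPKM in WT LSCs and 896 and 1609 RPKM in WT LSK cells. These 3 of the 12 azurophil genes in the main set rose, 0 fell and the median was 1.48. Among the 9 that did not pass, Lyz2, lysozyme, measured 6.52, 82.5 and 379.6 RPKM in WT LSCs and 1466 and 1118 RPKM in WT LSK cells, and Srgn, the granule proteoglycan serglycin, 130.5, 58.1 and 329 RPKM in WT LSCs and 1455 and 1176 RPKM in WT LSK cells (limma adjusted p = 0.130 and 0.0594). The list summed to 28831 to 40016 RPKM in the LSC libraries and to 8165 and 8205 RPKM in the LSK libraries.

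Eosinophil and basophil granule genes showed some of the largest increases. Prg2, the eosinophil granule major basic protein, measured 2861, 1970.1 and 695 RPKM in WT LSCs against 14.6 and 54.6 RPKM in WT LSK cells (log2 5.74, SE 0.80, limma adjusted p = 0.0315). Its relative Prg3 measured 156, 117 and 79.8 RPKM in WT LSCs against 2.06 and 5.85 RPKM in WT LSK cells (log2 4.64, SE 0.80, limma adjusted p = 0.0371). Mcpt8, a basophil serine protease, measured 1166, 433 and 637 RPKM in WT LSCs against 6.94 and 20.9 RPKM in WT LSK cells (log2 5.70, SE 0.70, limma adjusted p = 0.0277). Every LSC library exceeded both LSK libraries for the 3 genes, which made 3 of the 5 main-set members of the list with 0 lower and a median of 4.64. The other main-set members did not pass: the eosinophil ribonuclease gene Ear2 measured 85.2, 251 and 112 RPKM in WT LSCs against 25.6 and 25.8 RPKM in WT LSK cells (log2 2.34, limma adjusted p = 0.101), and the receptor gene Ccr3 had a log2 difference of -0.02. Outside the main set, Epx was at 0.510 RPKM in WT LSC library 2 and at the floor in the other two, and Fcer1a, Ms4a2, Il5ra, Tpsb2 and Il1rl1 were at the floor in all 3. Of the whole list, 0 members were above the floor in both LSK libraries and at it in all 3 LSC libraries. The genes at the floor in all 3 LSC libraries were thus also at it in at least 1 LSK library. With the 5 KO libraries in the model, Prg2 and Mcpt8 did not pass (limma adjusted p = 0.301 and 0.380), nor without the library labelled KO LSC 2 (0.305 and 0.306). Cma1, a mast cell chymase, stood at 508 RPKM in WT LSC library 3 alone.

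**Figure D3:**
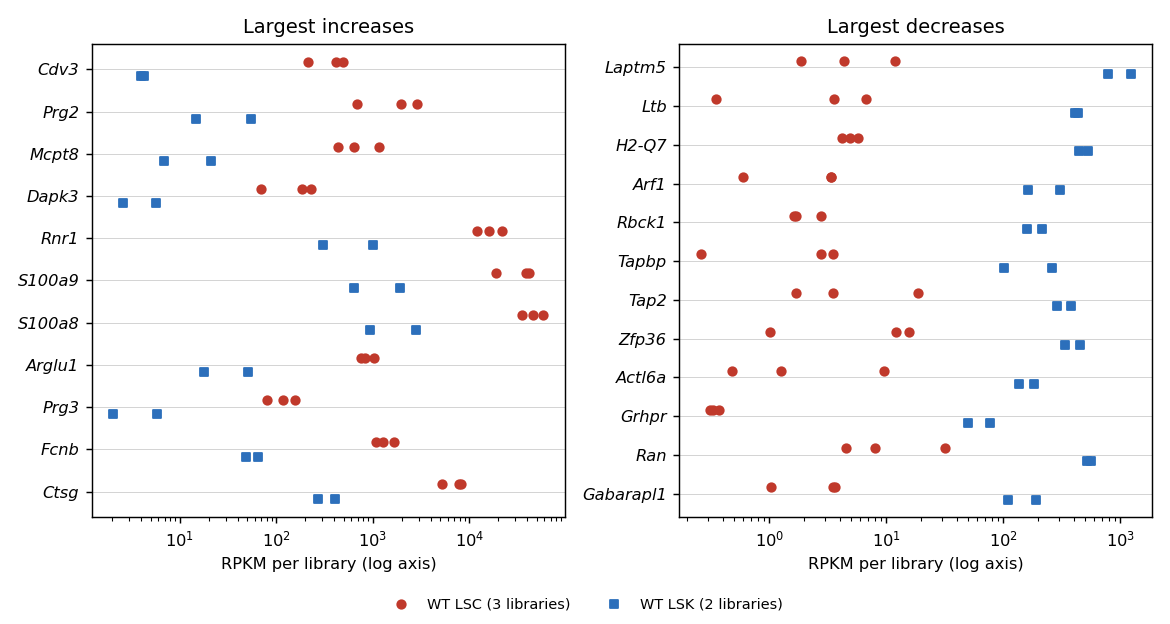
RPKM (log axis) in each WT LSC library (red circles) and WT LSK library (blue squares) for 11 of the largest increases, left, and the 12 largest decreases, right, among genes that passed. Only genes whose groups do not overlap were eligible to be shown, and the LSC points of most genes spread more widely than the LSK points.

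Of the macrophage and complement genes 1 rose. Apoe, apolipoprotein E, measured 7656, 14452 and 13958 RPKM in WT LSCs against 1641 and 968 RPKM in WT LSK cells, the 1 member to pass of the 18 in the main set (log2 3.20, SE 0.50, limma adjusted p = 0.0315). The complement subunit C1qb, with 1827, 4539 and 5146 RPKM in WT LSCs and 697 and 294 RPKM in WT LSK cells, and the mannose receptor Mrc1, with 56.2, 199.6 and 148 RPKM in WT LSCs and 6.02 and 8.90 RPKM in WT LSK cells, missed the threshold (limma adjusted p = 0.0548 and 0.0546). The list's median was 1.47, with 12 members positive and 6 negative. Its summed level was 11895, 24759 and 27010.1 RPKM in WT LSCs and 4747 and 3609 RPKM in WT LSK cells. Csf1r, the macrophage growth factor receptor, was at 0.110, 0.125 and 68.5 RPKM in WT LSCs and 10.6 and 30.7 RPKM in WT LSK cells. The part of macrophage RNA in these differences was not tested.

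Outside the lists, further genes of secreted or myeloid proteins rose and are named after their values were seen. C3, the central complement protein, measured 176, 186 and 102 RPKM in WT LSCs against 6.69 and 7.98 RPKM in WT LSK cells, and Cfp, properdin, 596, 984 and 1122 RPKM in WT LSCs against 166 and 141 RPKM in WT LSK cells. Igf1, a growth factor, measured 413, 345 and 444 RPKM in WT LSCs against 54.2 and 34.1 RPKM in WT LSK cells. Their log2 differences were 4.18, 2.50 and 3.18 (limma adjusted p = 0.0338, 0.0473 and 0.0315). Mt1, a metal-binding metallothionein, rose by log2 3.95 to 3358, 2885 and 3756 RPKM in WT LSCs, against 304 and 149.5 RPKM in WT LSK cells.

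The alpha-globin copies Hba-a1 and Hba-a2 rose, at 3124, 2778 and 1609 RPKM and at 1258, 1087 and 547 RPKM in WT LSCs, against 380.3 and 160.2 RPKM and 110.3 and 43.7 RPKM in WT LSK cells (log2 3.28 and 3.69, limma adjusted p = 0.0359 and 0.0348). Because these genes are near-identical, reads may have been split between them and they count as 1 observation. Of the 7 erythroid genes in the main set these were the 2 that passed, and the list's median was 0.37, or 1.23 under quantile normalization and 0.67 with equal library medians. The beta-globin gene Beta-s measured 379.9, 546 and 394 RPKM in WT LSCs and 221 and 137 RPKM in WT LSK cells, groups that did not overlap, but it did not pass (log2 1.32, limma adjusted p = 0.161). In all 5 of the 7 were positive and 2 negative. Klf1, an erythroid transcription factor, was at 0.003 RPKM in each WT LSC library against 43.4 and 26.4 RPKM in the LSK libraries, and Car2, carbonic anhydrase, was at 251, 22.9 and 225 RPKM in WT LSCs against 1924 and 1733 RPKM in WT LSK cells. The summed erythroid level was 2926 to 5158 RPKM in WT LSCs and 2354 and 3022 RPKM in WT LSK cells.

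The single largest increase was Cdv3 (chromosome 9, 103353094 to 103365840, minus strand), with 420.0, 488 and 216 RPKM in WT LSCs against 4.27 and 3.99 RPKM in WT LSK cells (log2 6.11, SE 0.67, limma adjusted p = 0.0277). Dapk3, a serine/threonine kinase linked to cell death, measured 69.2, 228 and 187 RPKM in WT LSCs against 5.62 and 2.61 RPKM in WT LSK cells (log2 4.89). Arglu1, a nuclear protein gene, rose by log2 4.78. Cdv3 and Dapk3 did not pass in the model with the KO libraries (limma adjusted p = 0.0993 and 0.148), nor without the library labelled KO LSC 2 (0.0941 and 0.126).

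Mitochondrial ribosomal RNA also rose: Rnr1, the small subunit RNA, measured 16136, 22052 and 12119.5 RPKM in WT LSCs against 998 and 304 RPKM in WT LSK cells (log2 4.88, SE 0.61, limma adjusted p = 0.0277), and the large subunit RNA Rnr2 rose by log2 3.43. The 13 mitochondrially encoded protein genes had a median of 1.66, and all 3 LSC libraries were above both LSK libraries for 11 of them, against 20.8% of the main set, but 0 passed (limma adjusted p = 0.0520 for ND2 and for ND4L). For the 79 genes of cytosolic ribosomal proteins the median was 0.89, with 66 positive, 40 of the 79 having all LSC libraries above both LSK libraries, and 0 passed. Rps15 measured 7673, 9139 and 5669 RPKM in WT LSCs and 1989.8 and 946 RPKM in WT LSK cells (limma adjusted p = 0.0531).

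MHC class I presentation was the group with the most decreases. B2m (chromosome 2, 122147686 to 122153083, plus strand), the invariant light chain beta-2 microglobulin, measured 846, 736 and 552 RPKM in WT LSCs against 6382 and 8919.5 RPKM in WT LSK cells (log2 -3.43, SE 0.44, limma adjusted p = 0.0277). The heavy chain gene H2-K1 measured 138, 32.6 and 316 RPKM in WT LSCs against 3447 and 3276 RPKM in WT LSK cells (log2 -4.88, SE 0.89, limma adjusted p = 0.0388). H2-D1 measured 142, 213 and 369 RPKM in WT LSCs against 2479 and 2929 RPKM in WT LSK cells (log2 -3.59, SE 0.53, limma adjusted p = 0.0315). The highest LSC library of each of these genes was below the lower LSK library.

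Peptide-loading genes fell as well. Tapbp, tapasin, which bridges the transporter and the heavy chain, measured 2.78, 0.261 and 3.53 RPKM in WT LSCs against 101 and 262 RPKM in WT LSK cells (log2 -5.88, SE 0.96, limma adjusted p = 0.0319). Tap2, a subunit of the peptide transporter, measured 1.69, 18.7 and 3.51 RPKM in WT LSCs against 286 and 382 RPKM in WT LSK cells (log2 -5.74, SE 1.02, limma adjusted p = 0.0371). Its partner Tap1 was outside the main set, at 0.759, 0.003 and 0.003 RPKM in WT LSCs and 115 and 203 RPKM in WT LSK cells. Psmb8, an immunoproteasome subunit, measured 205, 75.6 and 247 RPKM in WT LSCs against 1416 and 1376 RPKM in WT LSK cells (log2 -3.15, limma adjusted p = 0.0473).

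In all, 6 of the 11 main-set members of the MHC class I list fell, 0 rose and the median was -3.38. The 5 that did not pass included the chaperones Calr and Canx, at 1565, 1658 and 1272 RPKM and 209, 479.7 and 412 RPKM in WT LSCs against 428 and 808 RPKM and 69.5 and 212 RPKM in WT LSK cells. Nlrc5, the activator of class I transcription, was at the floor in 2 LSC libraries and at 2.20 RPKM in the third, against 12.5 and 12.1 RPKM in WT LSK cells. The non-classical heavy chains H2-Q7, with 4.19, 5.72 and 4.91 RPKM in WT LSCs against 445 and 530.5 RPKM in WT LSK cells (log2 -6.37), and H2-Q6 (log2 -5.20) also fell. The heavy chain genes are close copies of one another, so how reads were split among them is uncertain. With all 10 libraries of the WT and KO groups in the model, B2m, H2-K1 and Psmb8 did not pass (limma adjusted p = 0.588, 0.0590 and 0.623), nor without the library labelled KO LSC 2 (0.534, 0.0504 and 0.540). With a pseudocount of 0.1, H2-K1, Tap2, Tapbp and Psmb8 did not pass (limma adjusted p = 0.0548 to 0.0589).

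MHC class II genes, which present to helper T cells, had a median of -2.10 over 4 members and 0 passed. Type I interferon response genes, among them Ifi35 at 8.65, 17.0 and 39.1 RPKM in WT LSCs and 295 and 213 RPKM in WT LSK cells (limma adjusted p = 0.0554), had a median of -1.62 over 19 members, 16 negative, and 0 passed. Proteasome genes had a median of -1.27 over 28 members, 26 negative, and 0 passed.

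**Figure D4:**
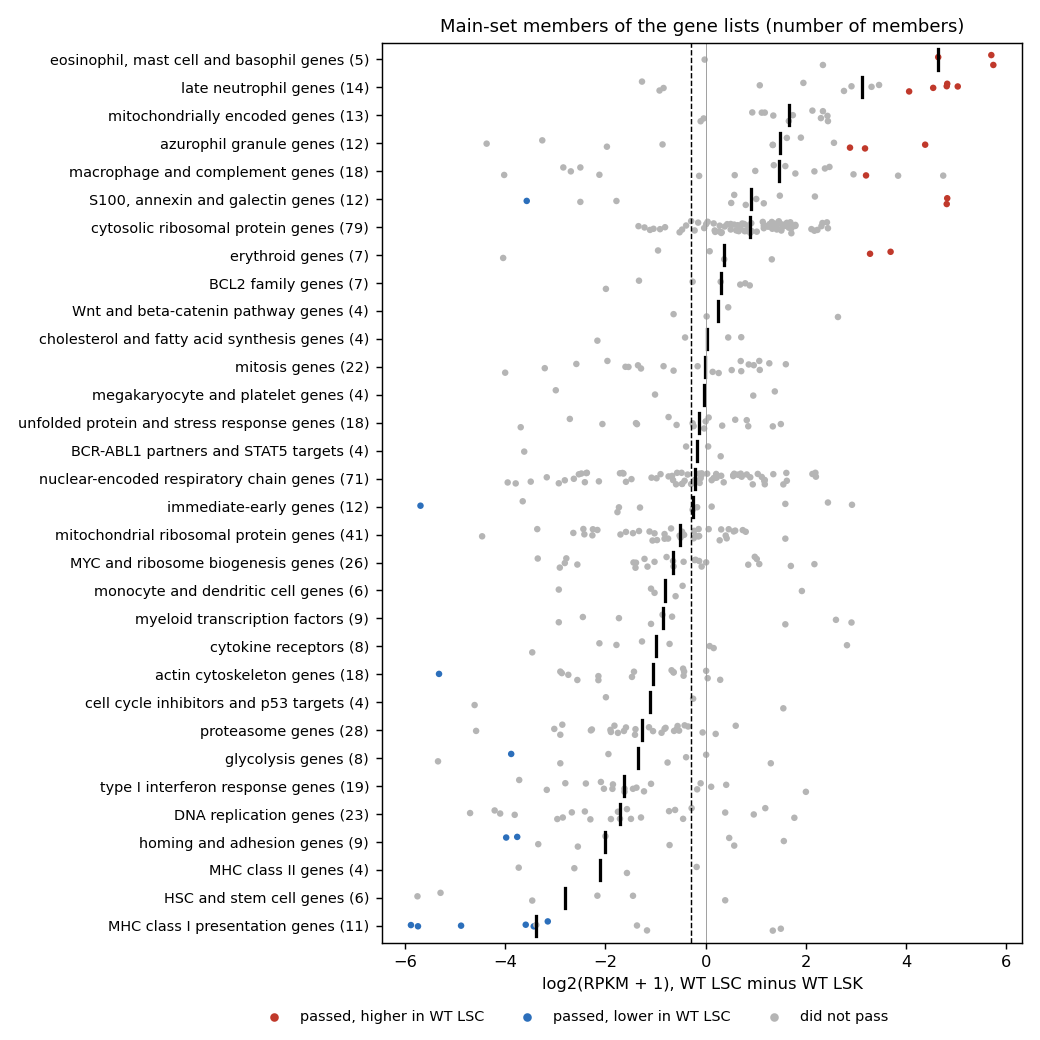
Difference in log2(RPKM + 1), WT LSC minus WT LSK, for each main-set member of the gene lists with at least 4 such members (number in brackets), with red and blue for genes that passed, a bar at each list's median and a dashed line at the main-set median of -0.29. The eosinophil, mast cell and basophil list lies at the top with a median of 4.64 and MHC class I presentation at the bottom with -3.38.

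The largest decrease was Laptm5 (chromosome 4, 130913125 to 130936141, plus strand), a lysosomal membrane protein gene of blood cells, with 11.9, 1.86 and 4.32 RPKM in WT LSCs against 783 and 1236 RPKM in WT LSK cells (log2 -7.40, SE 0.85, limma adjusted p = 0.0277). Ltb, lymphotoxin beta, measured 0.352, 3.57 and 6.70 RPKM in WT LSCs against 438 and 408 RPKM in WT LSK cells (log2 -6.87, SE 0.97, limma adjusted p = 0.0315). Zfp36, tristetraprolin, which marks AU-rich messages for decay, measured 1.01, 15.6 and 12.2 RPKM in WT LSCs against 338 and 457 RPKM in WT LSK cells and was the 1 of 12 immediate-early genes to fall (log2 -5.69, limma adjusted p = 0.0427). For each of these genes the LSC libraries were all below both LSK libraries.

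Arf1, a GTPase of Golgi transport, and Ran, the GTPase of nuclear transport, had log2 differences of -6.16 and -5.53. Rbck1, a subunit of the linear ubiquitin ligase, Actl6a, of BAF chromatin remodelling, Grhpr, glyoxylate reductase, and Gabarapl1, of autophagy, had log2 differences of -5.96, -5.60, -5.56 and -5.39. The limma adjusted p of these 6 genes was 0.0277 to 0.0436. Ran did not pass in the model with the KO libraries (limma adjusted p = 0.115) but did without the library labelled KO LSC 2, and Actl6a, like Zfp36, did not with a pseudocount of 0.1 (limma adjusted p = 0.0633 and 0.0631). Grhpr measured 0.328, 0.370 and 0.313 RPKM in WT LSCs against 76.4 and 50.2 RPKM in WT LSK cells, and the LSC values lie near the estimated worth of 1 read per kilobase in the same libraries. Single WT LSC values of that order also occurred in other genes. They were 0.352 RPKM for Ltb and 0.221 RPKM for Kit in library 1, 0.261 RPKM for Tapbp in library 2 and 0.478 RPKM for Actl6a in library 3. The size of such log2 differences is uncertain.

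Surface and metabolic genes were among the decreases. Cd47, the signal that protects cells from phagocytosis, measured 36.9, 80.6 and 30.1 RPKM in WT LSCs against 656 and 793 RPKM in WT LSK cells (log2 -3.98, SE 0.62, limma adjusted p = 0.0315). Selplg, the selectin ligand PSGL-1 used in rolling on vessel walls, measured 33.8, 21.6 and 45.3 RPKM in WT LSCs against 402 and 501 RPKM in WT LSK cells (log2 -3.76, SE 0.60, limma adjusted p = 0.0315). These were the 2 of 9 homing and adhesion genes that passed, and the list's median was -2.0. Ldha, lactate dehydrogenase A, was the 1 of 8 glycolysis genes that passed, at 52.9, 29.5 and 42.4 RPKM in WT LSCs against 626 and 592 RPKM in WT LSK cells.

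S100a10, the annexin A2 partner, went the other way from S100a8 and S100a9 within its list of 12, at 58.4, 46.0 and 141 RPKM in WT LSCs against 1105 and 682 RPKM in WT LSK cells (log2 -3.57, limma adjusted p = 0.0371). Gpx1, a peroxide-reducing enzyme, and Cdk4, a kinase of the G1 phase, also fell, at log2 -3.28 and -3.72, and are named after their values were seen. With the KO libraries in the model Cd47, Selplg, Ldha and S100a10 did not pass (limma adjusted p = 0.429, 0.249, 0.416 and 0.0611). Without the library labelled KO LSC 2, Ldha passed and Cd47, Selplg and S100a10 did not (limma adjusted p = 0.380, 0.196 and 0.0506). Actg1 and Eef1a1 also fell, but both have many processed copies in the genome, as has H3f3a, which fell together with its copies H3f3c, Gm12657 and Gm10257.

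Of the 41 HSC genes 6 were in the main set, against 3956 of the 13808 features above the floor in both LSK libraries. All 41 genes of the list were above the floor in both LSK libraries, and 18 of them (43.9%, against 33.1% of all such features) were at the floor in all 3 LSC libraries. Among genes with an LSK mean of at least 20 RPKM the numbers were 9 of 30, against 1024 of 6371 over all features. At 0.003 RPKM in all 3 WT LSC libraries, Procr, the endothelial protein C receptor used to sort HSCs, was at 85.5 and 101 RPKM in WT LSK cells and the transcription factor Hlf at 27.3 and 75.7 RPKM. The 6 that reached the main set had a median of -2.81 and 0 passed: Cd34 measured 2.15, 44.9 and 7.88 RPKM in WT LSCs and 259.7 and 696 RPKM in WT LSK cells (log2 -5.29, limma adjusted p = 0.0589), and the homeobox gene Meis1 14.5, 34.9 and 27.1 RPKM in WT LSCs and 75.4 and 163 RPKM in WT LSK cells (log2 -2.16, limma adjusted p = 0.146). Hoxa9, another homeobox gene of stem cells and leukemia, measured 64.3, 0.003 and 102 RPKM in WT LSCs against 165 and 132 RPKM in WT LSK cells.

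Cholesterol and fatty acid synthesis genes were often at the floor in LSCs. Of the 36 above the floor in both LSK libraries, 19 (52.8%, against 33.1% of all such features) were at it in all 3 LSC libraries. So were 12 of the 25 with an LSK mean of at least 20 RPKM, against 1024 of 6371 (16.1%) over all features. They included the fatty acid desaturase Fads2 (27.7 and 39.8 RPKM in WT LSK cells) and the sterol enzyme Nsdhl (38.9 and 36.6 RPKM). Fdps, farnesyl diphosphate synthase, was present at 63.7, 149 and 57.2 RPKM in WT LSCs and 54.2 and 45.1 RPKM in WT LSK cells (log2 0.71, limma adjusted p = 0.559).

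Of the 35 genes of BCR-ABL1 partners and STAT5 targets, 12 (34.3%) were at the floor in all 3 LSC libraries, near the 33.1% over all such features. With an LSK mean of at least 20 RPKM the numbers were 5 of 17, against 1024 of 6371 (16.1%) over all features. The adaptor Crkl, a direct substrate of BCR-ABL1, was among these 5 with 35.5 and 41.5 RPKM in WT LSK cells, as was the STAT5 target Cish with 28.2 and 38.7 RPKM. The 4 in the main set, among them Ccnd2, Mcl1 and Ptpn11, had a median of -0.17 and 0 passed. Myc, outside the main set, measured 48.9, 0.003 and 16.6 RPKM in WT LSCs and 434 and 598 RPKM in WT LSK cells.

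Strongly expressed LSK genes without LSC signal were few. Of the 397 features with an LSK mean of at least 500 RPKM, 8 were at the floor in all 3 LSC libraries. Cd81, a tetraspanin, at 444 and 584 RPKM in WT LSK cells, and Egfl7, a secreted factor of HSCs and vessels, at 477 and 420.2 RPKM, led the named genes. Tspan4, Mrpl13, Brk1, Shisa5, Pts, Sdcbp and Gng10 followed, with LSK means from 339 to 433 RPKM. In the reverse direction 14 features (0.350% of those above the floor in all 3 LSC libraries) were at the floor in both LSK libraries. Bmx, a TEC-family tyrosine kinase (chromosome X), was the highest named one at 8.39, 18.6 and 8.15 RPKM in WT LSCs, and Chd5, Myt1 and Pcdh11x were below 1 RPKM in every library.

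The remaining lists had no member that passed. DNA replication genes had a median of -1.71 over 23 members, 19 of them negative, with Pcna, the polymerase clamp, at 25.9, 43.7 and 33.0 RPKM in WT LSCs and 284 and 216 RPKM in WT LSK cells (limma adjusted p = 0.0546). Mitosis genes had a median of -0.01 over 22 members. MYC and ribosome biogenesis genes had a median of -0.65 over 26, nuclear-encoded respiratory chain genes of -0.21 over 71, mitochondrial ribosomal protein genes of -0.52 over 41, and unfolded protein and stress response genes of -0.13 over 18. Myeloid transcription factors had a median of -0.86 over 9 and included Cebpe, which drives late granulocyte genes, at 187, 20.7 and 125 RPKM in WT LSCs and 8.75 and 10.7 RPKM in WT LSK cells (limma adjusted p = 0.154), and Sfpi1, which encodes PU.1, at 77.5, 121 and 33.2 RPKM in WT LSCs and 359 and 393 RPKM in WT LSK cells (limma adjusted p = 0.0854). Cytokine receptors had a median of -1.0 over 8. Of the 34 lists with main-set members, 6 had a median of the other sign under quantile normalization or equal library medians. They were the respiratory chain, mitosis, stress response, immediate-early, megakaryocyte, and BCR-ABL1 and STAT5 lists, the last at 0.37 and 0.17 in place of -0.17.

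The marker lists of other lineages had 0 members that passed, and their summed levels were not tested. Few members were tested. The main set held 1 B lineage, 4 megakaryocyte and platelet and 6 monocyte and dendritic cell genes. It held 0 T and NK cell genes and 0 endothelial and stromal genes, so in these lists none could pass. B lineage and lymphoid priming genes summed to 1185, 146 and 238 RPKM in WT LSCs and 7362 and 4731 RPKM in WT LSK cells. Megakaryocyte and platelet genes summed to 218, 549.7 and 1214 RPKM in WT LSCs and 1085 and 1125 RPKM in WT LSK cells. Of the T and NK cell genes above the floor in both LSK libraries, 11 of 16 were at it in all 3 LSC libraries, against 33.1% of all features, and 2 of the 6 with an LSK mean of at least 20 RPKM, against 16.1% of all features at that level; the list summed to 346, 102 and 336 RPKM in WT LSCs and 348 and 437 RPKM in WT LSK cells. Monocyte and dendritic cell genes summed to 1544, 1499 and 2217 RPKM in WT LSCs and 2048 and 2110.5 RPKM in WT LSK cells.

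The KO groups, which share no library with the WT groups, gave these values for the same genes. S100a8 measured 11100.2, 12064 and 18539 RPKM in KO LSCs against 1915 and 1453 RPKM in KO LSK cells, and Ctsg 6389, 8537 and 14377 RPKM in KO LSCs against 222 and 353 RPKM in KO LSK cells. H2-K1 measured 380.2, 790.2 and 86.3 RPKM in KO LSCs against 2997 and 2836 RPKM in KO LSK cells, and Laptm5 was at 0.003 RPKM in all 3 KO LSC libraries against 871 and 639 RPKM in KO LSK cells. Of the 52 decreases, all 52 had a lower mean in KO LSCs than in KO LSK cells and 49 had every KO LSC library below both KO LSK libraries. The same was common at large: 3540 of the 3956 main-set features had a lower KO LSC mean, 2161 had every KO LSC library below and 1302 were at the floor in all 3 KO LSC libraries. Of the 51 increases, 28 had a higher mean in KO LSCs and 23 a lower one, against 415 higher in the whole main set. Among them 18 had every KO LSC library above and 10 every one below, against 159 above and 2161 below in the main set. Without the library labelled KO LSC 2, all 52 decreases again had the lower KO LSC mean and 50 did not overlap, against 2561 of the main set that lay below. The increases then split into 22 higher and 29 lower, with 19 above and 15 below without overlap. In the whole main set 477 then had the higher KO LSC mean, 247 lay above and 2561 below.

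The vehicle-treated LSCs showed other levels, in a table whose normalisation was separate. S100a8 was at 72.2 ± 10.4 RPKM, Apoe at 33.7 ± 5.35 and Camp at 8.48 ± 1.77 in Veh LSCs (SD, n = 3), below every WT LSC and WT LSK library. Ctsg was at 354 ± 12 RPKM and Elane at 489 ± 31.5 RPKM. B2m was at 1574 ± 65.2 RPKM and H2-K1 at 621 ± 2.78 RPKM, each between the WT LSC and WT LSK libraries. Kit was at 73.9 ± 4.8 RPKM, within the range of the WT LSK libraries, and Ly6a at 18.8 ± 4.74 RPKM. Of the 4202 matched features without signal in the WT LSC libraries, 3662 (87.1%) were above the floor in all 3 Veh LSC libraries. The floor of that table is 0.001 RPKM and not 0.003 RPKM, and 99.1% of the matched main-set features were above it in all 3. Among the 3662 were Procr at 2.64, 3.20 and 2.75 RPKM and Cd81 at 110.1, 106 and 111 RPKM. Veh LSCs had no LSK libraries of their own, so no difference was tested.

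**Figure D5:**
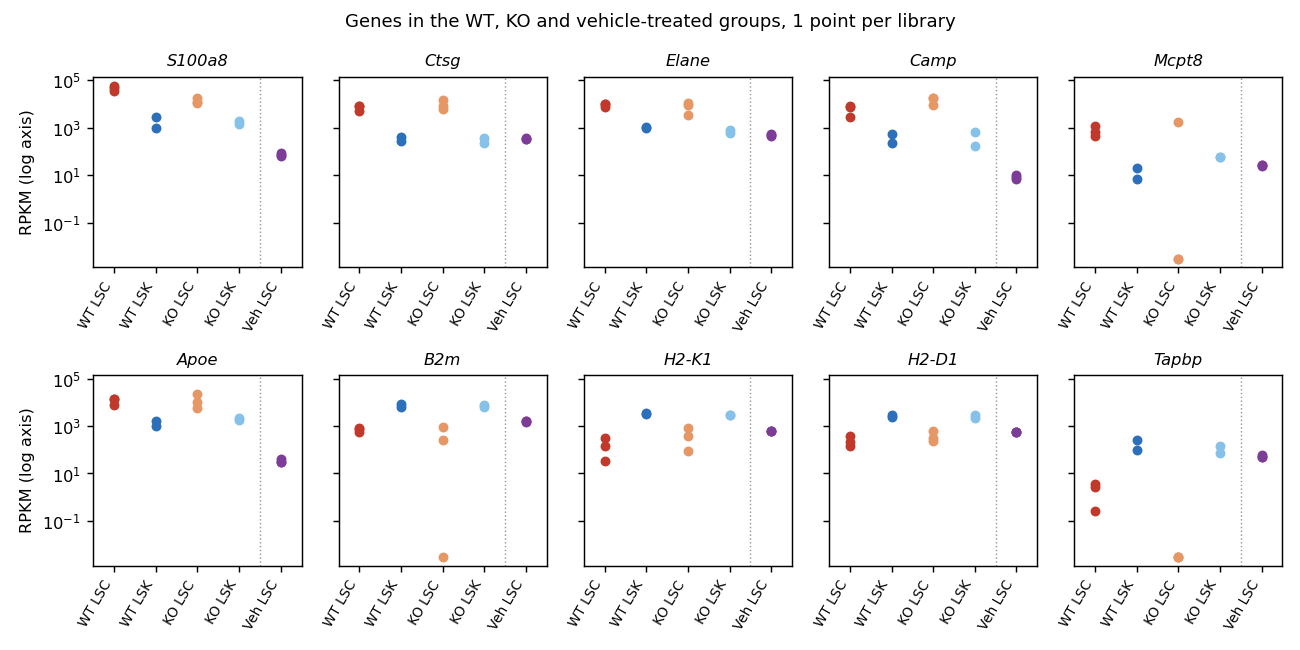
RPKM (log axis) of 6 genes that rose and 4 that fell in WT LSCs, 1 point per library, in WT LSC, WT LSK, KO LSC, KO LSK and, right of the dotted line and from a separately normalised table, Veh LSC. S100a8, Camp and Apoe in Veh LSCs lie below all WT libraries, while B2m and H2-K1 lie between WT LSC and WT LSK.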

How the data were processed

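RNA of sorted bone marrow cells was amplified with the SMART-Seq v4 kit and sequenced, per the labels. The deposited values carry no unit name in the files. They were read as RPKM, reads per kilobase and 1000000 mapped reads, since low values of single-exon genes step with gene length; RPKM and FPKM could not be told apart. The genome build is GRCm38 (mm10), per the submitters' processing notes; for the aligner, the counter and the gene models the sources used here give no name. The authors' deposited RPKM values were taken as log2(RPKM + 1), and no counts were used.

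The 5 WT libraries were fitted with limma 3.58.1 (R 4.3.3), with an intensity trend, over the 3956 features above 0.003 in all of them, p-values being two-sided and adjusted by Benjamini-Hochberg with a threshold of 0.05. The plan was tested on simulated data with independent genes and, for each gene, the same spread in both groups. The real groups differed in spread, so the simulation cannot show how the test behaves on them. Genes were named by a rule: Cd93, Kit and Ly6a, the 12 largest changes each way among those that passed with groups not overlapping and a mean of at least 5 RPKM in the higher group, the 10 highest genes present in 1 group only, and up to 4 members of each list by p. Unnamed models, pseudogenes and features that share a name (454) were left out of the naming, and 25 names had turned into dates. The main set, the 36 lists and the rule were chosen with earlier results of these data known. Of 1050 list entries 1034 matched by symbol, 13 by synonym and 3 not. Gene positions are from GENCODE M21 and promoter sequences from RefSeq, both on GRCm38. Replicate numbers did not pair the libraries. Alternatives changed the pseudocount, scaling, filter, libraries in the model, weights, replicate block and libraries left out; 1 model without a KO library was added after the data were seen. A few of the genes named by this rule were omitted.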

Additional observations from a re-analysis of the deposited data

Results flagged for a closer look

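The 5 genes named here moved in opposite directions in the WT and in the KO comparison, with every LSC library above both LSK libraries in WT and every LSC library below both in KO, and the difference between the comparisons was not tested for any of them. The log2 difference of LSCs from LSK cells was 0.71 in WT and -5.33 in KO for Fdps, and 2.92 in WT and -1.96 in KO for Fosb. It was 2.44 in WT and -6.15 in KO for Jund, 4.64 in WT and -2.41 in KO for Prg3, and 2.60 in WT and -2.98 in KO for Zeb2. Of these, Prg3 passed in WT. Without the library labelled KO LSC 2, whose Cd93 value goes against its label, the KO differences were -5.33 for Fdps, -1.96 for Fosb, -5.84 for Jund, -2.41 for Prg3 and -2.89 for Zeb2. Low values in KO LSCs were common: 2161 of the 3956 main-set features had every KO LSC library below both KO LSK libraries. So had 10 of the 51 features that rose in WT, so the pattern is not particular to the genes named here. In KO LSCs 1302 main-set features were at the floor in all 3 libraries, among them Fdps, Fosb and Prg3.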

How the results depend on the processing

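The counts of 51 higher and 52 lower depended on the processing, while no call changed sign in any of the 16 alternatives. A pseudocount of 0.1 gave 44 higher and 34 lower and one of 5 gave 109 and 135. Quantile normalization gave 157 higher and 104 lower, equal library medians 127 and 54, and a mean of at least 5 RPKM 61 and 50. Library weights gave 240 higher and 430 lower. With all 10 libraries of the CD93 experiment in the model there were 56 higher and 126 lower, and 52 of the 103 calls remained. That model without the library labelled KO LSC 2, chosen after seeing the data, gave 56 and 105 and kept 59. A wider filter, at least 1 RPKM in 2 libraries, tested 12449 features and gave 264 higher and 4829 lower, and no filter gave 178 and 4470, because features at the floor in LSCs then enter. The main-set median of -0.29 became -0.35 and -0.20 with the pseudocounts, 0.06 with quantile normalization, 0.04 with equal medians, -2.14 with the wider filter and -0.06 with no filter. Leaving out 1 library gave 0 to 87 higher, 0 to 159 lower and medians of -0.32 to -0.24; a group left with 1 LSK library was assumed to vary like the other. The replicate block gave 257 higher, 464 lower and a median of -0.24; the numbers did not pair the libraries (correlations of deviations 0.0787 and 0.0383), so this is no stronger result. Of the 40 named genes that passed, 129 of 200 values with a library left out and 32 of 440 under the other alternatives lost the call. Of 512 list medians under the alternatives, 53 moved by more than the spread between libraries. Features at the floor in all 3 LSC libraries numbered 1918 instead of 4575 when both LSK libraries had at least 5 RPKM. Features at the floor in both LSK libraries numbered 6 instead of 14 with at least 1 RPKM in the 3 LSC libraries, and 21 to 36 with a library left out. Depth is not given by the files, and a gene listed at 0.003 may lie below what a library could detect.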
